A study of Mus musculus with 12 samples.

Results

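The genes described here are 46 genes of the mitotic spindle, the kinetochore and chromosome condensation. They were chosen by name, as parts of the machinery that vincristine (VCR) holds up in mitosis, from the 38894 genes whose transcripts were quantified. By role they comprise 6 spindle assembly checkpoint genes, 6 centromere and inner kinetochore genes, 8 outer kinetochore genes, 4 genes of cohesion release, 2 of the chromosomal passenger complex, 7 spindle motor and spindle assembly genes, 6 genes of the central spindle, cytokinesis and mitotic exit, and 7 condensin and chromosome structure genes. RNA-seq was performed on 12 dissected Rd76-9 tumors, grown in the flank of wild-type mice of the strain labelled C57/Bl6J, 8 to 12 weeks old at injection, and collected at day 16 after inoculation. Rd76-9 is a mouse embryonal rhabdomyosarcoma cell line from a carcinogen-induced tumor. The 4 groups held 3 tumors each. The VCR group (m4, m5 and m6) received 0.25 mg/kg vincristine, a drug that binds tubulin and blocks the growth of spindle microtubules, intraperitoneally every 7 days. The RCM1-NPFA group (m7, m8 and m9) received 8 µg of RCM1, a small-molecule inhibitor of the transcription factor FOXM1, in nanoparticles carrying folic acid, intravenously every 48 hours. The VCR+RCM1-NPFA group (m10, m11 and m12) received both drugs. The vehicle group (m1, m2 and m3) is titled as control and received saline and empty nanoparticles by the study's methods, although its treatment label also names RCM1 nanoparticles. All tumors came from 1 cell line and were sequenced whole, so the tumor cells and the host cells among them were not separated.

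In mitosis each sister chromatid carries a kinetochore, a layered protein structure built on centromeric nucleosomes, which captures the ends of spindle microtubules. The spindle assembly checkpoint delays chromosome separation while any kinetochore is unattached, which is how tubulin poisons such as vincristine arrest cells. Condensin and topoisomerase II shape the chromosomes, and kinesins, the passenger complex and the cytokinesis factors complete division. Most of these genes are transcribed late in the cell cycle. FOXM1 and the DREAM and MuvB complexes are each known to act at many of their promoters through cell cycle genes homology regions. CCAAT boxes, another promoter element, were counted as well.

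The promoters are shown for 3 of the genes that rose after VCR (Cdc20, Cenpa and Cenpm), for Ube2c, and for Top2a and Mki67, the proliferation genes with the most reads among the 46. Each line gives the 200 bases that end at the base before a RefSeq start of the gene (build GRCm38.p6), 5′ to 3′ on the gene's strand. That start is not always the outermost one. The stretch of Cenpm lies within the bounds of its gene (chr15:82233762-82244773), and those of Cenpa, Top2a and Mki67 overlap theirs in part. Capitals mark matches, on either strand, to CCAAT, to TTTGAA or TTCGAA (the cell cycle genes homology region), and to TAAACA (the forkhead core).
Cdc20 (chr4:118437344-118437543, minus strand): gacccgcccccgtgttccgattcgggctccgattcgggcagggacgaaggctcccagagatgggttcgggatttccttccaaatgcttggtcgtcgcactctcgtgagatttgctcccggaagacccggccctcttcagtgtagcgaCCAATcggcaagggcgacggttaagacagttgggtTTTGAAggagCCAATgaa
Cenpa (chr5:30666686-30666885, plus strand): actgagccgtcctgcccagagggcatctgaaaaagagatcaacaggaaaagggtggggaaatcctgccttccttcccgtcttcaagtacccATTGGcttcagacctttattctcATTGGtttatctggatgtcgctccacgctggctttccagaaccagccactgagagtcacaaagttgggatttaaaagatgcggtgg
Cenpm (chr15:82244337-82244536, minus strand): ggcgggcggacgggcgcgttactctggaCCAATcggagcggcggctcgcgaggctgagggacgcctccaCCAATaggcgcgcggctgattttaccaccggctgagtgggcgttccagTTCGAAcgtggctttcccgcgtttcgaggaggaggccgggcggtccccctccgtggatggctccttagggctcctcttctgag
Ube2c (chr2:164769729-164769928, plus strand): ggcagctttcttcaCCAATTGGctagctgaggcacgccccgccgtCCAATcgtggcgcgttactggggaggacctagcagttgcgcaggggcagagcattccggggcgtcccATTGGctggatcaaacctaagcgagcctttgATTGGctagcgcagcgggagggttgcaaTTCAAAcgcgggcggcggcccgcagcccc
Top2a (chr11:99024190-99024389, minus strand): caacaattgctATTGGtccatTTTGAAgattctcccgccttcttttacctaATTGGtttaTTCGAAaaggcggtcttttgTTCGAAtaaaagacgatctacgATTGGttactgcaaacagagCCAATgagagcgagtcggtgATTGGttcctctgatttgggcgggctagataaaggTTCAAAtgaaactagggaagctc
Mki67 (chr7:135716380-135716579, minus strand): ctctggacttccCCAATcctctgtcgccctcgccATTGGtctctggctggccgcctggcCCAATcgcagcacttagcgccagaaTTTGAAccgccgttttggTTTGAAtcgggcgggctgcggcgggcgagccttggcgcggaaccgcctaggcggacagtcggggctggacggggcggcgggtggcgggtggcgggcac

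Windows of 300 bases around the start, 250 of them upstream, were given for 40 of the 46 genes, and those of Spc24, Zwilch, Incenp, Tpx2, Kif20a and Smc4 were not analysed here. TTTGAA or TTCGAA was found in the windows of 29 of the 40 genes (72.5%), against 21.7% of 27025 genes with a window. CCAAT was found in 31 (77.5%, against 41.1%), and at least 2 matches to CCAAT in 18 (45%, against 13.3%). Both kinds of motif were found in 25 genes (62.5%, against 8.61%). TAAACA was found in 5 genes (12.5%, against 15.1%). The high shares were not particular to the 46. Of 11 genes among Foxm1, the mitotic kinases and the cyclins, 72.7% held the homology region and 90.9% CCAAT. These shares were 63.6% and 52.3% in 44 further spindle, kinetochore and condensin genes, and 21.4% and 64.3% in 28 DNA replication and S phase genes. Matches to different motifs overlapped each other in 2 of the 40 genes. In the stretches printed above, Top2a held 5 matches to CCAAT and 4 to the homology region, of which the nearest began 23 bases before the start. Cdc20 held TTTGAA 18 bases before the start, between matches to CCAAT at 53 and 8 bases. Cenpm held TTCGAA at 83 bases, and Cenpa held CCAAT on the opposite strand at 109 and 86 bases and no homology region in the stretch shown. Past the start, the window of Cenpa held TTTGAA from base 17, so Cenpa is counted among the 29 genes. Ube2c held 5 matches to CCAAT, of which the pair at 186 and 183 bases overlap, and TTTGAA on the opposite strand at 29 bases. Mki67 held TTTGAA at 116 and 98 bases. A match is a description of the sequence and not evidence of binding in these tumors.

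Library depth was even, with 29342195 to 32108055 estimated reads in a tumor, and 17599 genes passed the filter on low counts, all 46 mitotic genes among them. Pairs of tumors of the same group differed by 14.4 to 85.3 times the sampling noise of their reads (chi-squared per degree of freedom). Comparisons used the quasi-likelihood F test of edgeR in one fit of the 12 tumors, and a gene was called changed at a Benjamini-Hochberg adjusted p-value under 0.1 over all genes tested. Levels are given as CPM, which are read counts scaled to the size of the library with TMM factors, or as TPM, which also takes out transcript length, where genes are compared with each other. The muscle regulator gene Myf5 was at 48.9 to 69.9 CPM in the 12 tumors, whereas Myod1 and Myog were between 0 and 2.38 CPM. The summed level of 22 adult muscle fibre genes was 314 to 458 CPM in the vehicle tumors, 2275 to 14567 after VCR (highest in m5), 422 to 21946 after RCM1-NPFA (highest in m9) and 844 to 5670 after both drugs. The summed level of 10 endothelial genes was 189 to 257 CPM in vehicle, 263 to 350 after VCR, 256 to 309 after RCM1-NPFA and 263 to 282 after both drugs, and that of 12 myogenic genes was 203 to 300, 417 to 709, 239 to 815 and 290 to 447 CPM. The VCR tumors were thus above the vehicle tumors, without overlap, in the sums of the muscle fibre, endothelial and myogenic genes. Most of the myogenic rise was in Des, at 10, 7.76 and 11.4 CPM in vehicle and 197, 429 and 135 CPM after VCR. Des was highest in m9 and m5, the tumors with the most fibre RNA. Cdh15, of the same list, was at 125, 149 and 188 CPM in vehicle and 201, 202 and 192 CPM after VCR, while Myf5 overlapped. After VCR 10 of 22 tested muscle fibre genes, 3 of 10 endothelial genes (Eng, Esam and Tie1), 3 of 11 tested myogenic genes (Des, Myod1 and Myog) and 2 of 10 fibroblast genes (Col1a1 and Dcn) were called by edgeR, all higher. Of all genes tested, 2.8% were called higher. The sum of the fibroblast genes, 4505 to 6272 CPM in vehicle and 5526 to 6052 after VCR, overlapped. So did those of 18 leukocyte genes (2157 to 4281 and 2829 to 3229 CPM) and of the adipocyte, keratinocyte and erythroid lists. Of these, 16 of 18 leukocyte, 10 of 10 adipocyte, 2 of 10 keratinocyte and 5 of 7 erythroid genes were tested, and 0 were called. In bulk tumors, fewer dividing cells and less RNA per dividing cell cannot be told apart.

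The 46 genes were expressed in every tumor, at mean TPM levels in the vehicle group that ran from 5.80 to 242. Top2a, topoisomerase II alpha, which untangles sister chromatids, had the highest mean level at 242 ± 56.5 TPM (SD, n = 3). Ube2c, the E2 enzyme of the anaphase-promoting complex, followed at 218 ± 11.3 TPM, a difference smaller than the spread of Top2a. Cdc20, the activator of that complex and target of the checkpoint, was at 165, 166 and 147 TPM in the 3 vehicle tumors, and Cenpa, the centromeric histone H3 variant, was at 150 ± 12.7 TPM, again within their spread. Smc4, an ATPase of condensin, was at 128 ± 24.2 TPM and Bub3, a checkpoint protein that also serves outside mitosis, was at 118 ± 8.65 TPM. The lowest levels were those of Knl1, the kinetochore scaffold for checkpoint proteins, at 5.80 ± 1.72 TPM and Kif18a, a kinesin that limits chromosome movement at the metaphase plate, at 8.88 ± 1.59 TPM. Per transcript length the genes thus spanned a wide range, while any one gene varied little over the 12 tumors. The ratio of the highest to the lowest TPM was smallest in Bub3, which lay between 109 and 130 TPM in every tumor, and largest in Smc4, at 1.90.

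**Figure D1:**
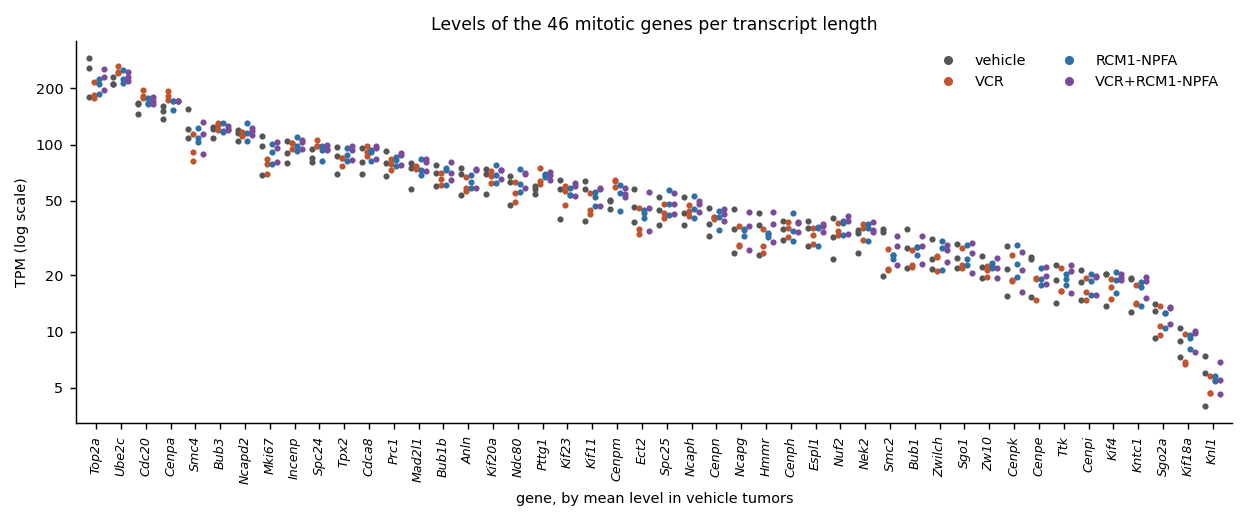
TPM (log scale) of each of the 46 genes in the 12 tumors, 1 point per tumor, coloured by group and ordered by the mean level in the vehicle tumors. The points of the 4 groups lie over each other for most genes, from Top2a at 242 TPM down to Knl1 at 5.80 TPM.

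The vehicle tumors differed among themselves in the same direction for most of these genes. The level was highest in m2 among the 3 vehicle tumors for 41 of the 46 genes (89.1%, against 29.4% of all genes tested) and lowest in m3 for 41 (89.1%, against 35.3%). The order m2, m1, m3 was found in 39 (84.8%, against 15.8%). Knl1 was at 41.1, 49.2 and 32.7 CPM in m1, m2 and m3, and Kntc1, a subunit of the complex that brings dynein to the kinetochore, at 59.9, 55.3 and 35.4 CPM. Over all 12 tumors, 17 genes were highest in m2, 17 in m8, of the RCM1-NPFA group, and 9 in m5, of the VCR group. The lowest level was in m3 for 24 genes, in m4 for 8 and in m7 for 6. A vehicle tumor and an RCM1-NPFA tumor, m2 and m8, were thus the highest for most of the genes, and another vehicle tumor, m3, was the lowest for the largest number. The summed level of the 46 genes was 5280, 5916 and 4606 CPM in the vehicle tumors, 4791, 5278 and 5301 after VCR, 4748, 5827 and 5218 after RCM1-NPFA, and 5575, 5470 and 4935 after both drugs. The mean of the sum was 5267 ± 655 CPM in vehicle, 5123 ± 288 after VCR, 5264 ± 541 after RCM1-NPFA and 5327 ± 343 after both drugs (SD, n = 3 each). Every treated tumor lay between m3 and m2, the lowest and the highest vehicle tumor.

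**Figure D2:**
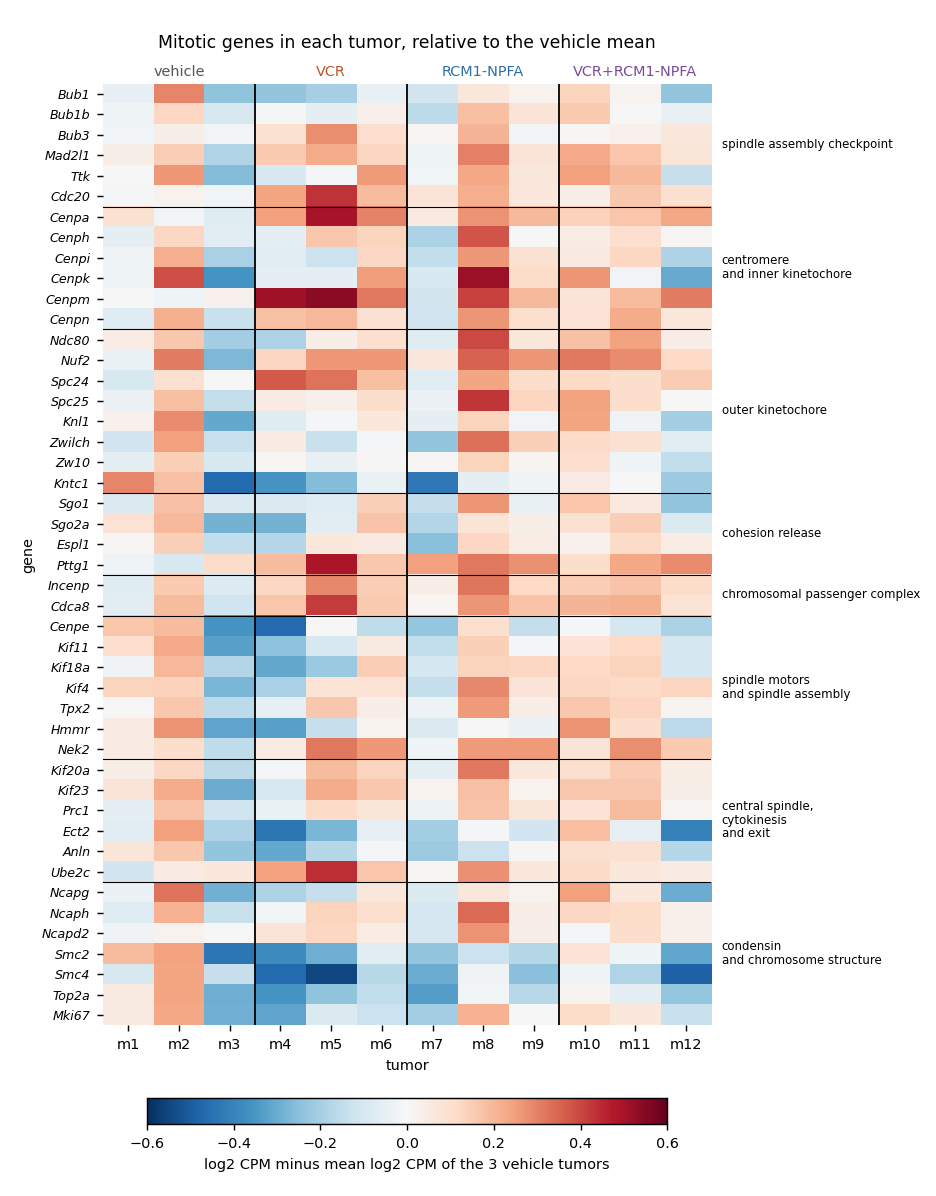
Heat map of the 46 genes (rows, by role) in the 12 tumors (columns, by group). Colour shows log2 CPM minus the mean log2 CPM of the 3 vehicle tumors, red above and blue below. The columns m2 and m8 are mostly red and m3 mostly blue, and within the VCR tumors Cenpa, Cenpm, Cdc20 and Spc24 are red while Smc4 and Top2a are blue.

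After VCR alone, 4 of the 46 genes rose and 0 fell. They were Cenpa, Cenpm, Cdc20 and Spc24, and their increases were between 1.22 and 1.37 times. Of all 17599 genes, 2.8% were called higher and 2.75% lower, so the share of the mitotic genes called higher, 4 of 46, stood beside a background of 2.8%. The remaining 42 genes did not pass the test. The median log2 fold change of the 46 genes was 0.01, beside 0.00 over all genes, with 23 genes above and 23 below 0. At an unadjusted p-value under 0.05 there were 8 genes, 7 higher and 1 lower, which is 17.4% of the 46, beside 22.1% of all genes. Every VCR tumor lay above every vehicle tumor for 8 genes (17.4%, against 13.5% of all genes) and below for 1 (2.17%, against 10.9%).

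The level of Cenpa was 88.3, 81.9 and 78.9 CPM in the vehicle tumors, 98.4, 117 and 102 CPM after VCR, 86.4, 100 and 94.8 CPM after RCM1-NPFA, and 91.4, 93.2 and 97.4 CPM after both drugs. All VCR tumors exceeded all vehicle tumors, and m5 was the highest of the 12. The log2 fold change of Cenpa (chr5:30666877-30674837) after VCR was 0.35 ± 0.08 (SE), with an edgeR adjusted p of 0.0759. Cenpm, a subunit of the constitutive centromere network of the inner kinetochore (chr15:82233762-82244773), was at 26.4, 25.9 and 26.8 CPM in vehicle and at 37.5, 38.4 and 32.8 CPM after VCR. The vehicle tumors were nearly alike and all VCR tumors were above them. RCM1-NPFA tumors spread across both groups at 24.4, 35.0 and 30.2 CPM, and tumors given both drugs were at 27.8, 30.1 and 32.6 CPM. The log2 fold change after VCR was 0.46 ± 0.12, the largest of the 46, with an edgeR adjusted p of 0.0871. The other genes of the centromere and inner kinetochore were not called. Cenpn, Cenph, Cenpk and Cenpi, further subunits of that network, had log2 fold changes of 0.15, 0.08, 0.02 and −0.03.

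Cdc20 (chr4:118432901-118437343) was at 160, 163 and 159 CPM in the vehicle tumors and at 189, 217 and 183 CPM after VCR. It was at 170, 187 and 168 CPM after RCM1-NPFA and at 165, 180 and 172 CPM after both drugs. Each of the 9 treated tumors was above the 3 vehicle tumors, which lay within 1.02 times of each other. Its log2 fold change after VCR was 0.29 ± 0.08, with an edgeR adjusted p of 0.0872. Among the other checkpoint genes, Mad2l1, which Cdc20 binds when a kinetochore is unattached, had a log2 fold change of 0.16, Bub3 of 0.16, the kinase gene Ttk of 0.04, the checkpoint inhibitor gene Bub1b of −0.02 and the kinase gene Bub1 of −0.17. None of these passed the test. Bub3 was at 140, 145 and 140 CPM in vehicle and at 151, 172 and 152 CPM after VCR, without overlap and with an SE of 0.08 on the log2 scale.

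Spc24 (chr9:21755434-21760446), a subunit of the NDC80 complex that binds microtubules, was at 55.3, 63.0 and 59.3 CPM in vehicle and at 76.4, 74.0 and 66.9 CPM after VCR. The groups did not overlap, and the log2 fold change was 0.29 ± 0.08 with an edgeR adjusted p of 0.0986. The other subunits of the same 4-protein complex, Ndc80, Nuf2 and Spc25, had log2 fold changes of −0.02, 0.20 and 0.06. Ndc80 was at 77.1, 83.5 and 64.7 CPM in vehicle and at 65.6, 76.7 and 79.8 CPM after VCR, and these ranges overlapped. The largest decrease among the outer kinetochore genes was that of Kntc1, with a log2 fold change of −0.25 that did not pass the test.

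**Figure D3:**
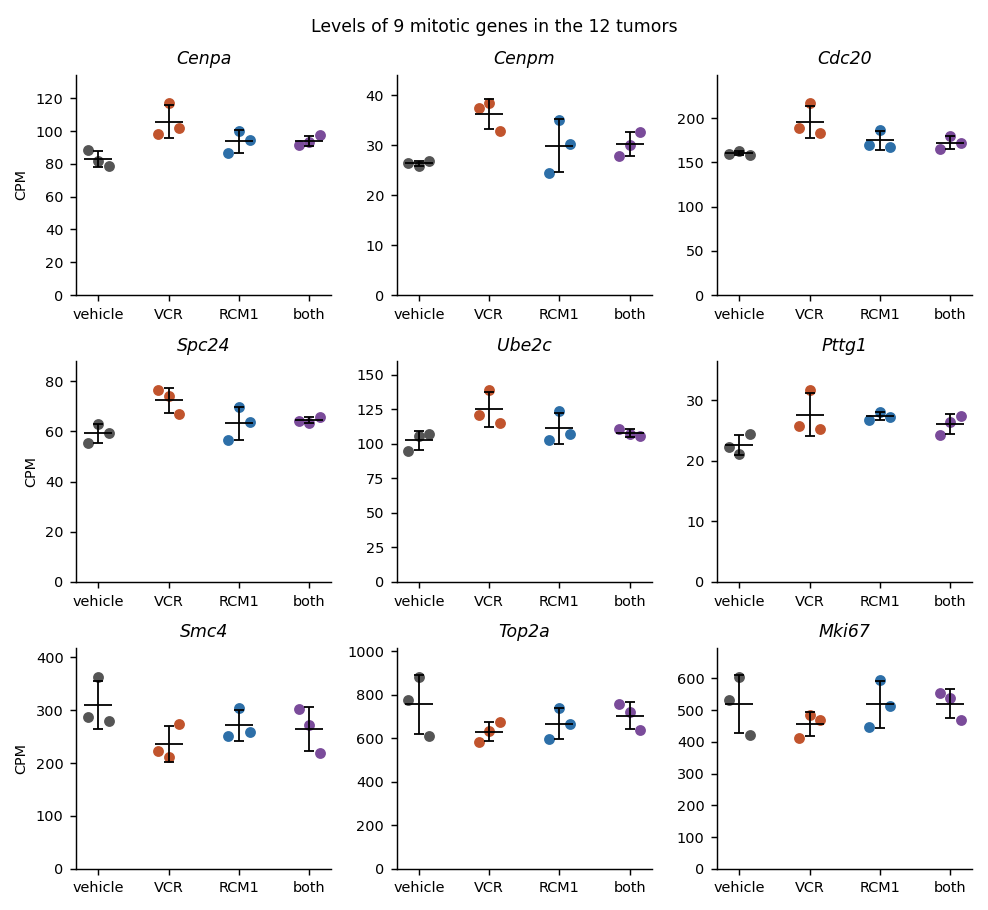
CPM of 9 genes in the 12 tumors, 1 point per tumor, with the mean and SD of the 3 tumors of each group (horizontal line and bars); RCM1 stands for RCM1-NPFA and both for VCR+RCM1-NPFA. The VCR tumors lie above the vehicle tumors for Cenpa, Cenpm, Cdc20, Spc24, Ube2c and Pttg1, below them for Smc4, and across them for Top2a and Mki67.

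Among the genes of anaphase and mitotic exit, Ube2c and Pttg1 were higher in each VCR tumor than in each vehicle tumor without passing the test. Ube2c was at 94.7, 106 and 107 CPM in vehicle and at 121, 139 and 115 CPM after VCR (log2 fold change 0.28 ± 0.09, edgeR adjusted p 0.121). Pttg1, which encodes securin, the inhibitor of separase, was at 22.3, 21.2 and 24.4 CPM in vehicle and at 25.8, 31.7 and 25.3 CPM after VCR (0.29 ± 0.10, edgeR adjusted p 0.139). Espl1, the gene of separase itself, had a log2 fold change of −0.02, and Sgo1 and Sgo2a, which protect centromeric cohesion, of −0.01 and −0.06. The passenger complex genes Cdca8 (borealin) and Incenp, the scaffold of that complex, had log2 fold changes of 0.25 and 0.19 with edgeR adjusted p-values of at least 0.191. Of the genes of the central spindle and cytokinesis, Kif20a, Kif23 and Prc1, which bundle and organise midzone microtubules, had log2 fold changes of 0.10, 0.09 and 0.04, while the RhoA activator gene Ect2 was at −0.26 and Anln, the gene of the contractile ring scaffold anillin, at −0.17.

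The lowest values after VCR were those of condensin and chromosome structure genes. Smc4 was at 288, 363 and 280 CPM in the vehicle tumors and at 223, 211 and 275 CPM after VCR. All VCR tumors were below all vehicle tumors, m6 only narrowly so, and the log2 fold change was −0.39 ± 0.15 with an edgeR adjusted p of 0.155. Smc2, the partner ATPase of Smc4, was at 110, 114 and 71.2 CPM in vehicle and at 73.8, 78.6 and 92.0 CPM after VCR, with m3 below the VCR tumors and a log2 fold change of −0.27. Top2a was at 777, 882 and 611 CPM in vehicle and at 585, 633 and 675 CPM after VCR, which overlapped, with a log2 fold change of −0.26. Mki67, the gene of the proliferation marker Ki-67, was at 533, 604 and 421 CPM in vehicle and at 412, 484 and 469 CPM after VCR. The vehicle range of Mki67 took in 2 of the 3 VCR tumors, and the log2 fold change was −0.19 ± 0.14. The non-SMC condensin genes Ncapd2, Ncaph and Ncapg had log2 fold changes of 0.08, 0.07 and −0.10. The motor genes Cenpe, Kif11, Kif18a and Kif4 had values of −0.22, −0.11, −0.12 and −0.02, the spindle assembly genes Hmmr and Tpx2 of −0.16 and 0.05, and the centrosomal kinase gene Nek2 of 0.21, and 0 of these 7 genes passed the test.

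**Figure D4:**
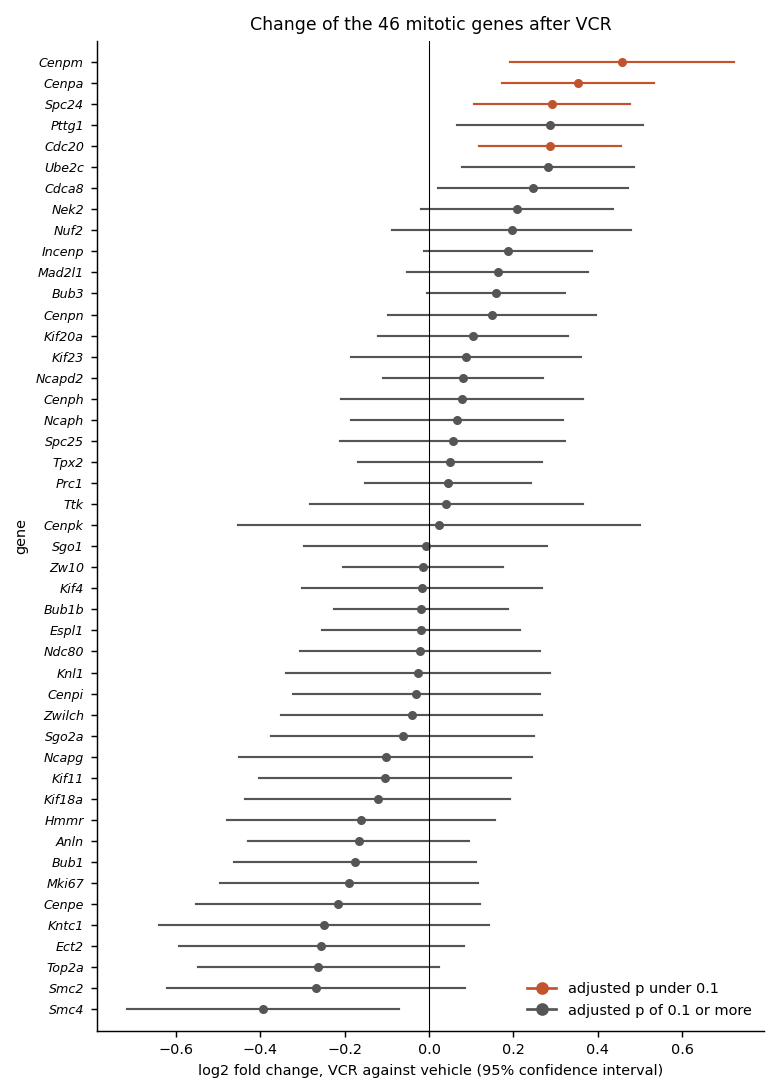
Log2 fold change of the 46 genes in VCR against vehicle tumors, with the 95% confidence interval of the edgeR fit, ordered by size. The 4 genes with an adjusted p under 0.1 are orange, and the intervals of all 46 genes lie between −0.72 and 0.72.

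The calls after VCR changed when single tumors were left out, including tumors outside the comparison. The same held for the calls over all genes, 976 in both directions (5.55%). Without m2, m4 or m5, 0 of the 46 genes and 0 of all genes were called, although 9, 9 and 4 of the 46 had an unadjusted p under 0.05 by edgeR, beside 17.4%, 15.5% and 12% of all genes. Without m11 the calls were 0 of the 46 and 1 of all genes, and without m12 they were 0 and 243 (1.35%). In these fits 7 and 8 of the 46 had an unadjusted p under 0.05 by edgeR, beside 20% and 21.2% of all genes. Tumors given both drugs were not in the comparison of VCR with vehicle and affected it through the fit shared by all groups. Cenpa alone of the 46 was called without m1, beside 281 of all genes (1.56%), and without m10, beside 522 (2.9%). Without m6, 6 of the 46 were called, Ube2c and, in the lower direction, Smc4 being added, beside 1998 of all genes (11.1%). Without m3 the calls were Cenpa and, lower, Smc2 and Top2a, beside 1287 of all genes (7.13%). In the fit without m3, 15 of the 46 had an unadjusted p under 0.05 by edgeR, beside 23.4% of all genes. Without m1, m6 or m10 there were 7, 10 and 7, beside 19.1%, 24.7% and 21.6%. The DESeq2 Wald test on all tumors called 7 genes, the 4 above with Ube2c and Pttg1 higher and Smc4 lower, beside 14.3% of the genes with a DESeq2 adjusted p-value, and limma-voom called Cenpa, Cenpm and Cdc20, beside 3.86% of all genes. The sums of muscle fibre, endothelial and myogenic RNA, the last largely through Des, moved with these results. All VCR tumors were above all vehicle tumors in each sum, and their part in the result was not tested. The VCR tumor with the most fibre RNA, m5, was also the highest tumor for Cenpa, Cenpm, Cdc20, Ube2c and Pttg1. The RCM1-NPFA tumor m9, which had the most fibre RNA of the 12 tumors, lay within the range of the other tumors for these genes, with Cenpa at 94.8, Cenpm at 30.2, Cdc20 at 168, Ube2c at 107 and Pttg1 at 27.3 CPM. Without m5 and m9, 0 of the 46 genes were called, beside 253 of all genes (1.42%), and 4 had an unadjusted p under 0.05 by edgeR, beside 12.6% of all genes.

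The change after VCR tended to be lower in genes with longer transcripts. The effective length, in bases, ran from 628 in Pttg1 to 11789 in Knl1. Cenpm, Cenpa, Spc24 and Cdc20, the genes that rose after VCR, had effective lengths of 881, 888, 1093 and 1621 bases and were among the 12 shortest. Over the 10 shortest genes, from 628 to 1587 bases, the log2 fold change after VCR was above 0 in 10, with a median of 0.26. Over the 10 longest, from 4360 to 11789 bases, it was below 0 in 10, with a median of −0.15. All tested genes within the same bounds had medians of 0.13 (3509 genes) and −0.17 (3725 genes). Single genes departed from this tendency. Cenpk, the third shortest at 865 bases, was at 0.02 and Knl1, the longest, at −0.03, while the lowest value was that of Smc4, at 3834 bases. Spearman's rho between length and log2 fold change was −0.77 over the 46 genes and −0.33 over all genes tested. In the comparisons of RCM1-NPFA and of both drugs with the same vehicle tumors, rho over the 46 genes was −0.82 and −0.63, beside −0.22 and −0.19 over all genes. These are descriptions across genes, which are not independent, and the 3 comparisons share their vehicle tumors. GC content went the other way, with a rho of 0.72 over the 46 genes after VCR and 0.32 over all 15662 genes with a value.

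**Figure D5:**
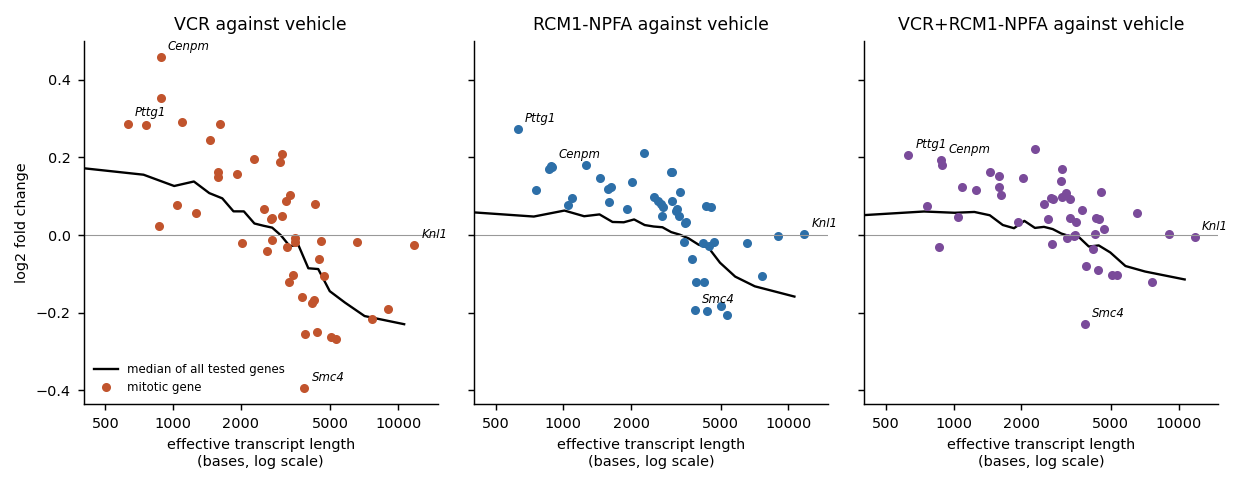
Log2 fold change against effective transcript length (bases, log scale) in the 3 treated groups against vehicle. Points are the 46 genes and the line is the median of all tested genes in 20 bins of equal size. The points fall from left to right in each panel, from 0.46 in Cenpm to −0.39 in Smc4 after VCR.

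The length relation differed between tumors of one group. The slope of log2 CPM, relative to the mean of the 12 tumors, on each doubling of length over all tested genes was 0.0433, 0.0287 and 0.0018 in m1, m2 and m3, and −0.0399, −0.0479 and 0.0001 in m4, m5 and m6. It was between −0.0156 and 0.0059 after RCM1-NPFA and between −0.0110 and 0.0216 after both drugs. Over the 46 genes the slope was 0.101, 0.113 and −0.0163 in the vehicle tumors and −0.106, −0.0961 and −0.0120 in the VCR tumors. Thus m1 and m2 stood at one end, m4 and m5 at the other, and m3 and m6 were close to each other. When offsets from splines of transcript length were added to the fit, a choice made after seeing the data, 0 of the 46 genes were called after VCR and the smallest edgeR adjusted p was 0.186, with 69 of all genes called. Cenpa, Cenpm, Cdc20 and Spc24 then had log2 fold changes of 0.12, 0.22, 0.10 and 0.06. With GC content added, 0 of the 46 were called and 138 of all genes. The origin of the length relation was not tested.

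After RCM1-NPFA alone, 0 of the 46 genes were called by edgeR, beside 0 of all genes (0%). The median log2 fold change was 0.07, with 32 genes above 0 and 14 below, beside 0.00 over all genes. One gene, Pttg1, had an unadjusted p under 0.05, which is 2.17% of the 46, beside 9.78% of all genes. Pttg1 was at 26.8, 28.1 and 27.3 CPM, above all vehicle tumors, with a log2 fold change of 0.27 ± 0.10 and an edgeR adjusted p of 0.437. The next highest values were 0.21 in Nuf2 and 0.18 in Spc25, a pair of NDC80 complex genes, and the lowest were −0.21 in Smc2, −0.20 in Kntc1 and −0.19 in Smc4. Nuf2 was at 44.1, 56.1 and 37.6 CPM in vehicle and at 47.3, 58.0 and 54.4 CPM after RCM1-NPFA, and m2 was above both m7 and m9. Mki67 was at 446, 594 and 514 CPM, inside the vehicle range, with a log2 fold change of 0.00 and a 95% confidence interval from −0.31 to 0.30. Top2a was at 595, 739 and 667 CPM, with m7 below the vehicle range and a log2 fold change of −0.18. All 6 centromere and inner kinetochore genes had values above 0, from 0.07 to 0.18, and 5 of the 7 condensin and chromosome structure genes had values below 0. The groups did not overlap for 2 genes, Cdc20 and Pttg1, both higher (4.35%, against 5.56% of all genes), and for 0 genes lower (against 5.86%).

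After both drugs together, 0 of the 46 genes were called against vehicle by edgeR, beside 0 of all genes (0%). None of the 46 had an unadjusted p under 0.05 by edgeR, beside 7.3% of all genes. The study's own DESeq2 analysis reported differentially expressed genes in this comparison, and DESeq2 counts over all genes are not given here for it. The median log2 fold change was 0.05, with 33 genes above 0 and 13 below. The highest values were 0.22 in Nuf2, 0.21 in Pttg1 and 0.19 in Cenpm, and the lowest were −0.23 in Smc4, −0.12 in Cenpe and −0.10 in Smc2 and in Top2a. The motor gene Cenpe was at 113, 115 and 78.9 CPM in vehicle and at 100, 93.7 and 88.3 CPM after both drugs, inside the vehicle range. Mki67 was at 555, 537 and 468 CPM and Top2a at 757, 720 and 638 CPM, each inside the vehicle range as well. The 95% confidence interval of the log2 fold change was −0.30 to 0.31 for Mki67 and −0.39 to 0.18 for Top2a, so that changes of this size could not be told from no change. Every tumor given both drugs exceeded every vehicle tumor for 4 genes, Cdc20, Cenpa, Cenpm and Spc24 (8.7%, against 7.1% of all genes), and 0 lay below (against 5.53%). These are the genes called after VCR, and both comparisons use the same vehicle tumors.

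Tumors given both drugs were also compared with each single drug. Against VCR, 0 of the 46 genes were called by edgeR, beside 0% of all genes, and the smallest edgeR adjusted p was 0.855. Cdc20 and Ube2c had an unadjusted p under 0.05 (4.35% of the 46, beside 5.26% of all genes), with log2 fold changes of −0.19 and −0.21. Ube2c was at 111, 107 and 106 CPM after both drugs, below the 3 VCR tumors. Cenpm was at −0.26, the lowest value, and the spindle gene Hmmr at 0.23, the highest. Against RCM1-NPFA, 0 of the 46 genes were called by edgeR, beside 0% of all genes, and 0 had an unadjusted p under 0.05 (beside 2.07%). The log2 fold changes of the 46 ran from −0.20 in Cenpk to 0.13 in Hmmr. The interaction, which asks whether the combination departed from the sum of the single-drug changes, called 0 of the 46 genes by edgeR, beside 0% of all genes. An unadjusted p under 0.05 was found for 6 genes (13% of the 46, beside 13.8% of all genes), which were Cenpa, Cdc20, Cenpm, Pttg1, Ube2c and Spc24. All had negative terms, between −0.44 in Cenpm and −0.26 in Spc24, with edgeR adjusted p-values of at least 0.293. The combination tumors had lower levels of these 6 genes than the sum of the single-drug log2 changes, a difference that did not pass the test. All 6 are among the 12 shortest genes, and Spearman's rho between length and the interaction term was 0.83 over the 46 genes, beside 0.30 over all genes tested. An unadjusted p under 0.05 was left in 0 of the 46 genes with splines of transcript length (beside 10.2% of all genes) and in 1 with GC content added (beside 10%).

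Within groups the 46 genes moved together from tumor to tumor. The median Pearson r of log2 CPM was 0.62 over the 1035 pairs of the 46 genes in the 12 tumors, beside 0.00 over all pairs of tested genes. After the group means were removed it was 0.70, again beside 0.00, and 93.6% of the pairs were positive. These values are descriptions over 12 tumors, and within a tumor all genes share the same library and depth. With the group means removed, Mki67 had the highest r with the mean of the other genes (0.99), followed by Top2a (0.97) and Nuf2 (0.95). The lowest values were those of Pttg1 (−0.27), Cenpm (0.22), Cdc20 (0.30), Ube2c (0.37), Spc24 (0.39) and Cenpa (0.43). The 4 genes that rose after VCR thus stood among the 6 least tied to the rest. Within the roles, the median r after removal of the group means was 0.80 for spindle motors and assembly, 0.76 for condensin and chromosome structure, 0.75 for the outer kinetochore and 0.34 for cohesion release.

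The counts of each gene are sums over its RefSeq transcripts, of which the 46 genes had 175, between 1 and 11 per gene. In 24 genes the leading transcript held at least 80% of the reads in the median tumor. It held less than 50% in 6 genes, namely Cenpa, Kif23, Prc1, Pttg1, Smc4 and Tpx2. The leading transcript was a predicted model in 6 genes, among them Mki67, where it held 96.8% to 99.6% of the reads. The share of the leading transcript ranged widely between tumors in Smc2 (19.3% to 74.0%) and Kntc1 (24.9% to 84.6%). Since such shares are estimates that divide reads common to several transcripts, only the sums per gene were tested.

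Other genes of the same processes, from lists written for this comparison, were set beside the 46. Of 50 further spindle, kinetochore and condensin genes, 1 was called after VCR, in the lower direction, beside 2.75% of all genes called lower. It was the spindle pole organiser gene Numa1, which fell by 0.30 on the log2 scale (edgeR adjusted p 0.0858), and the median of the 50 was 0.04. Of 15 genes comprising Foxm1, the mitotic kinases and the cyclins, 2 were called and both rose, beside 2.8% of all genes called higher. They were Aurka, whose kinase matures the spindle poles, with a log2 fold change of 0.47 ± 0.10 (edgeR adjusted p 0.0725), and Plk1, the polo-like kinase, with 0.36 ± 0.08 (edgeR adjusted p 0.0712). All 15 had values above 0 after VCR, with a median of 0.18. Foxm1 itself had log2 fold changes of 0.17 after VCR, 0.14 after RCM1-NPFA and 0.14 after both drugs, each with an SE of 0.09, and was not called. Of 35 DNA replication and S phase genes, 1 was called after VCR, in the higher direction, again beside 2.8% of all genes. It was Ccne1, the cyclin that starts S phase, with 0.55 ± 0.13 (edgeR adjusted p 0.0811), and the median of the 35 was 0.09. After RCM1-NPFA and after both drugs, 0 genes of the 3 lists were called by edgeR, beside 0 of all genes, and the medians lay between 0.06 and 0.10.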

How the data were processed

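Tumor RNA was sequenced from 12 tumors, 3 per group. Per the labels and the study's methods, the authors prepared poly-A libraries with a kit named as stranded but described as non-stranded, so that a gene and one overlapping it on the other strand may share reads, and assigned the reads with kallisto to transcripts of GRCm38 (version not given in the sources used here). The deposited tables give for each transcript an estimated count, not normalized and not whole, a TPM value and an effective length in bases.

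For each gene, the estimated counts and TPM values of its RefSeq transcripts were added. Of 120299 transcripts, 10 were not matched to a gene, with at most 0.0149% of the reads of a tumor. The sums were rounded, filtered with edgeR's filterByExpr at a minimum count of 10, normalized by TMM, and fitted over all 17599 genes in edgeR 4.0.16 under R 4.3.3 (glmQLFit and glmQLFTest, a quasi-likelihood test), in one model of 4 groups with 6 comparisons. Each comparison had its own Benjamini-Hochberg adjustment, and genes under 0.1 were called, as in the study. A gene's effective length is the mean of its transcripts weighted by their TPM, averaged over the tumors. Correlations used log2(CPM + 0.5). In the main fit the precision of a log2 fold change is set by the spread between tumors within groups, since depth was close to even. This spread was estimated over all 4 groups together, including groups outside a given comparison. The labels name no batch and do not say more of the tumors than that they are separate samples, so p-values measure the spread between these samples.

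The members and the lists were chosen with earlier results of these data known. The genes named in detail are those called (up to 10 in each direction), the 3 highest and 3 lowest in each comparison with vehicle, and Mki67, Top2a, Bub1b, Cdc20, Cenpa, Ndc80, Kif11, Kif18a, Incenp, Ncapg and Bub3; the others are named to complete their complexes. Other cell types were represented by lists of muscle fibre, leukocyte, endothelial, adipocyte, keratinocyte, erythroid, fibroblast and myogenic genes. The alternatives were size factors from DESeq2 1.42.0, omission of the filter, a stricter filter (mean of 50 counts), length offsets, edgeR on only the groups compared, the Wald test of DESeq2 on those or on all tumors, voom with limma 3.58.1, a stricter threshold (0.05), and removal of each tumor in turn. Offsets from splines of transcript length, with and without GC content, and leaving out m5 and m9 were added after seeing the data. The fits were also run on simulated counts. These were drawn without a relation to transcript length, so they do not bear on how the calls depend on length. Promoter windows were taken from RefSeq (GRCm38.p6). Tables and figures were made with Python 3.11.15, numpy 2.4.6, scipy 1.17.1, pandas 2.3.3 and matplotlib 3.10.9.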

Additional observations from a re-analysis of the deposited data

How the results depend on the processing

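After VCR edgeR called 4 of the 46 genes and 976 of all genes. The counts were 3 and 936 with DESeq2's size factors, 2 and 648 without the filter on counts, 4 and 1225 with a mean of at least 50 counts, 2 and 759 with length offsets, 3 and 680 with limma-voom, 7 and 2214 with DESeq2 on all tumors, 3 and 1421 with DESeq2 and 1 and 465 with edgeR on only the groups compared, and 0 and 9 at a threshold of 0.05. They were 0 and 69 with splines of transcript length, 0 and 138 with splines of length and GC content, 0 and 253 without m5 and m9, and between 0 and 6 of the 46 and 0 and 1998 of all genes when 1 tumor was left out. In the other 5 comparisons 0 of the 46 genes were called under every one of these settings that was fitted. The interaction was not fitted on only the groups compared. Counts over all genes in these 5 comparisons are given here for the main edgeR fit only. When 1 tumor was left out, the median log2 fold change of the 46 genes ranged from −0.07 to 0.09 after VCR, −0.02 to 0.14 after RCM1-NPFA, −0.01 to 0.14 after both drugs, −0.01 to 0.09 for both drugs against VCR, −0.06 to 0.09 against RCM1-NPFA, and −0.12 to 0.05 for the interaction. Without 1 tumor, the log2 fold change after VCR ranged from 0.28 to 0.40 in Cenpa (called in 7 of 12 fits), 0.42 to 0.50 in Cenpm (4 of 12), 0.21 to 0.32 in Cdc20 (4 of 12) and 0.24 to 0.32 in Spc24 (3 of 12).

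Values near 0 changed sign under some settings, given here as the log2 fold change where the sign differed from the main one. With splines of transcript length it was −0.012 in Bub3 after VCR. With splines of transcript length it was 0.096 in Mki67, −0.004 in Bub1b, −0.014 in Bub3 and −0.007 in Spc24 after RCM1-NPFA. With splines of transcript length it was −0.021 in Bub1b, −0.014 in Cdc20, −0.004 in Kif11, −0.017 in Kif18a, −0.076 in Bub3 and −0.002 in Spc24 after both drugs. With splines of length and GC content it was 0.006 in Bub1b, 0.027 in Kif11, 0.071 in Kif18a, 0.16 in Ncapg and −0.054 in Spc24 after VCR. With splines of length and GC content it was 0.12 in Mki67, 0.038 in Kif11, 0.066 in Ncapg and −0.061 in Spc24 after RCM1-NPFA. With splines of length and GC content it was −0.050 in Cdc20, 0.076 in Ncapg, −0.040 in Bub3 and −0.056 in Spc24 after both drugs. With splines of length and GC content it was 0.060 in Spc24 for the interaction. With limma-voom it was 0.004 in Mki67 and 0.002 in Ncapg after RCM1-NPFA. With limma-voom it was 0.003 in Ncapg after both drugs. After both drugs Mki67 was at −0.006 with DESeq2's size factors, −0.011 with no filter, −0.014 with a mean of at least 50 counts, −0.003 with DESeq2 on all tumors, −0.002 with edgeR on only the groups compared, −0.004 with DESeq2 on only the groups compared and −0.002 with m5 and m9 left out. Mki67 was at 0.003 after RCM1-NPFA with m5 and m9 left out. Kif11 was at −0.002 after both drugs with a mean of at least 50 counts.

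With 1 tumor left out, ranges that held both signs were −0.064 to 0.029 in Bub1b, −0.12 to 0.060 in Ndc80 and −0.24 to 0.060 in Ncapg after VCR. With 1 tumor left out, ranges that held both signs were −0.13 to 0.11 in Mki67, −0.16 to 0.089 in Kif11, −0.15 to 0.15 in Ncapg, −0.042 to 0.12 in Bub1b, −0.035 to 0.15 in Kif18a, −0.009 to 0.23 in Ndc80 and −0.003 to 0.11 in Bub3 after RCM1-NPFA. With 1 tumor left out, ranges that held both signs were −0.23 to 0.010 in Top2a, −0.14 to 0.17 in Ncapg, −0.29 to 0.004 in Smc2, −0.13 to 0.11 in Mki67, −0.041 to 0.085 in Bub1b, −0.13 to 0.12 in Kif11 and −0.040 to 0.14 in Kif18a after both drugs.

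The tumors carry replicate numbers that no 2 groups share. No paired analysis was possible because the labels pair no tumors. The widest 95% interval among the 46 genes reached 0.48 on the log2 scale to either side in a comparison of 2 groups, so changes smaller than that in such a gene could not be told from 0. The cause of each change between settings was not tested.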
